A study of Mus musculus with 11 samples.

Results

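The mitochondrial chromosome of the mouse carries its own small set of genes. Their RNA was counted here in pancreas and adipose tissue of control mice and of mice with obesity-related alcohol-induced acute pancreatitis (OA-AP). The genes were chosen by name, as those whose symbol starts with mt-, which gave 37 genes of the 54532 listed for pancreas and 37 of the 46078 listed for adipose tissue. Of these, 13 encode proteins, 2 encode ribosomal RNAs (rRNA) and 22 encode transfer RNAs (tRNA). The 13 protein-coding genes are described first in each comparison, and the rRNA and tRNA genes apart.

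All 11 libraries came from wild type C57BL/6 mice aged 16 weeks. Controls were kept on normal chow for 12 weeks, and the OA-AP groups on high-fat food over the same 12 weeks before ethanol at 2 g/kg was given into the peritoneum in 2 injections 1 h apart, with tissue taken 12 h after the first. The methods of the study name the substrain C57BL/6J, which the labels do not, and add that the mice were male, that controls received saline and that the fat was epididymal. There are 2 control and 3 OA-AP libraries of pancreas, and 3 of each group for adipose tissue. Diet and ethanol differ together between the groups, so their effects cannot be told apart. Each library is listed as a separate tissue sample, but the labels do not say whether each came from a different mouse, and every p-value below measures only the spread between libraries. RNA came from whole tissue, so fewer cells rich in mitochondria and less mitochondrial RNA per cell cannot be told apart.

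Mitochondrial DNA is transcribed from both strands as long precursors, from which the tRNAs are excised and the rRNAs and messenger RNAs released. The encoded proteins are membrane subunits of respiratory complexes I, III and IV and of the ATP synthase, the machinery of oxidative phosphorylation (OXPHOS), while every subunit of complex II and most subunits of the others come from nuclear genes. Acinar cells of the pancreas use the ATP made by this machinery to synthesise and secrete digestive enzymes, and white adipocytes use mitochondria in fatty acid synthesis and breakdown.

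The pancreas libraries held 14188832 to 17238919 counts and the adipose libraries 20825177 to 27928097. The labelled tissues were checked against marker genes. All 12 acinar markers had counts in every pancreas library, and they summed to 48.5 and 49.8% of the counts in the controls and to 37.7, 38.8 and 40.4% in OA-AP samples 1, 2 and 3, with Ctrb1 the most abundant. All 8 adipocyte markers had counts in every adipose library, and they summed to 5.04, 4.87 and 5.19% in the controls and 3.81, 3.47 and 3.65% in OA-AP, with Fabp4 the most abundant. Of these 8 edgeR called 3 lower and 1 higher (12.7 and 12.4% of all genes). Fabp4 went against the sum, at 16139, 16816 and 15935 TMM-scaled CPM in the controls and 19077, 17237 and 19999 in OA-AP. Adipose control 2 stood apart. Acinar markers took 0.604% of its counts, with all 12 detected and Ctrb1 on top, against 0.000899 to 0.00167% in the other 5 adipose libraries. Islet markers in that library summed to 1.33e-05%, with Ins1, Gcg, Sst and Iapp at 0.

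In the adipose libraries the neutrophil markers, 6 of 6 with counts and Csf3r or S100a9 on top, summed to 0.000689, 0.00123 and 0.00131% in controls and 0.0144, 0.0140 and 0.0169% in OA-AP. In pancreas they reached 0.0105% in OA-AP sample 3, against 0.00162 and 0.000402% in OA-AP samples 1 and 2 and 7.47e-05 and 0.000132% in controls. In adipose tissue the fibroblast markers, 5 of 5 with counts and Dcn on top, summed to 0.276, 0.246 and 0.304% in controls and 0.123, 0.162 and 0.123% in OA-AP. The lymphocyte markers, Cd79a on top, summed to 0.000639, 0.00365 and 0.00112% and to 0.000182, 0.000248 and 0.000330%. The macrophage markers, Lyz2 on top, summed to 0.0710, 0.0873 and 0.0781% and to 0.0925, 0.0830 and 0.116%. By library share the macrophage markers alone overlapped among these 3 lists. On the TMM scale they did not overlap, at 672, 827 and 741 CPM in controls and 990, 866 and 1224 in OA-AP. edgeR called 1 of these 6 markers lower and 3 higher in adipose tissue (12.7 and 12.4% of all genes). In pancreas the islet markers, Ins2 on top, summed to 0.0738 and 0.0807% in controls and 0.205, 0.157 and 0.156% in OA-AP, with 1 of the 6 called lower and 1 higher by edgeR on the TMM scale (13.5 and 16.2% of all genes). The mesothelial markers there, Krt8 on top, summed to 0.00849 and 0.00642% and to 0.0499, 0.0305 and 0.0809%, a sum that is nearly all Krt8 (373 of 378, 240 of 248 and 728 of 729 CPM in OA-AP), while the median log2 fold change of the 4 members was -0.68. By library share the duct markers, Spp1 on top, summed to 0.00705 and 0.00552% and to 0.00996, 0.00857 and 0.0141%, and the macrophage markers to 0.00446 and 0.00191% and to 0.00632, 0.00602 and 0.0115%. On the TMM scale both overlapped, at 88.9 and 79.1 against 75.6, 69.5 and 127 CPM and at 56.3 and 27.4 against 47.9, 48.8 and 103 CPM, with 1 member of each list called lower and 0 higher by edgeR (1 and 2 higher at an unadjusted p under 0.05). Brown adipocyte markers summed to at most 0.000265% in any adipose library, with Ucp1 and Elovl3 at 0 in control 2. The part of any of these cell populations in the mitochondrial results was not tested.

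The share of the library on the 13 protein-coding genes was the first quantity compared. In pancreas it was 0.793% (95% Wilson interval 0.789 to 0.798) and 0.826% (0.821 to 0.830) in the controls. It was 0.882% (0.877 to 0.887), 0.879% (0.874 to 0.884) and 0.947% (0.943 to 0.952) in OA-AP samples 1, 2 and 3. The intervals cover counting error only. Every OA-AP library lay above both controls, with means of 0.809% ± 0.0230 (SD, n = 2) and 0.903% ± 0.0387 (SD, n = 3). The difference of 0.0935 percentage points had an exact permutation p of 0.1 (two-sided), which is the smallest p that 2 against 3 samples can give.

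This direction turned with the denominator. A set of 29 genes, the 12 acinar markers and 17 others that each took over 1% of a pancreas library, held 76.8 and 78.6% of all counts in the controls and 63.5, 66.2 and 66.1% in OA-AP. With these 29 genes taken out of the total, the 13 mitochondrial genes made up 3.42 and 3.85% of the remainder in the controls and 2.42, 2.60 and 2.79% in OA-AP. On library sizes scaled by TMM, the edgeR method that sets library size from the bulk of the genes, the share was 1.00 and 1.18% in the controls and 0.669, 0.712 and 0.853% in OA-AP. The mitochondrial share was thus higher in OA-AP as a part of all counts and lower relative to most other pancreatic genes, without overlap in either case.

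In adipose tissue the 13 genes took 6.96% (95% Wilson interval 6.95 to 6.97), 5.29% (5.28 to 5.30) and 6.46% (6.45 to 6.47) of the library in controls 1, 2 and 3. In OA-AP they took 7.08% (7.07 to 7.09), 6.48% (6.47 to 6.49) and 6.38% (6.37 to 6.39). The groups overlapped, and the lowest value was that of control 2, the library with acinar RNA. Means were 6.24% ± 0.855 (SD, n = 3) and 6.64% ± 0.379 (SD, n = 3), a difference of 0.407 percentage points with an exact permutation p of 0.5. Without control 2 the difference was -0.0652 (exact p = 0.9), so its direction rests on that library. On TMM-scaled sizes the values were 6.59, 5.01 and 6.13% in controls and 7.58, 6.76 and 6.72% in OA-AP, without overlap (exact p = 0.1).

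**Figure D1:**
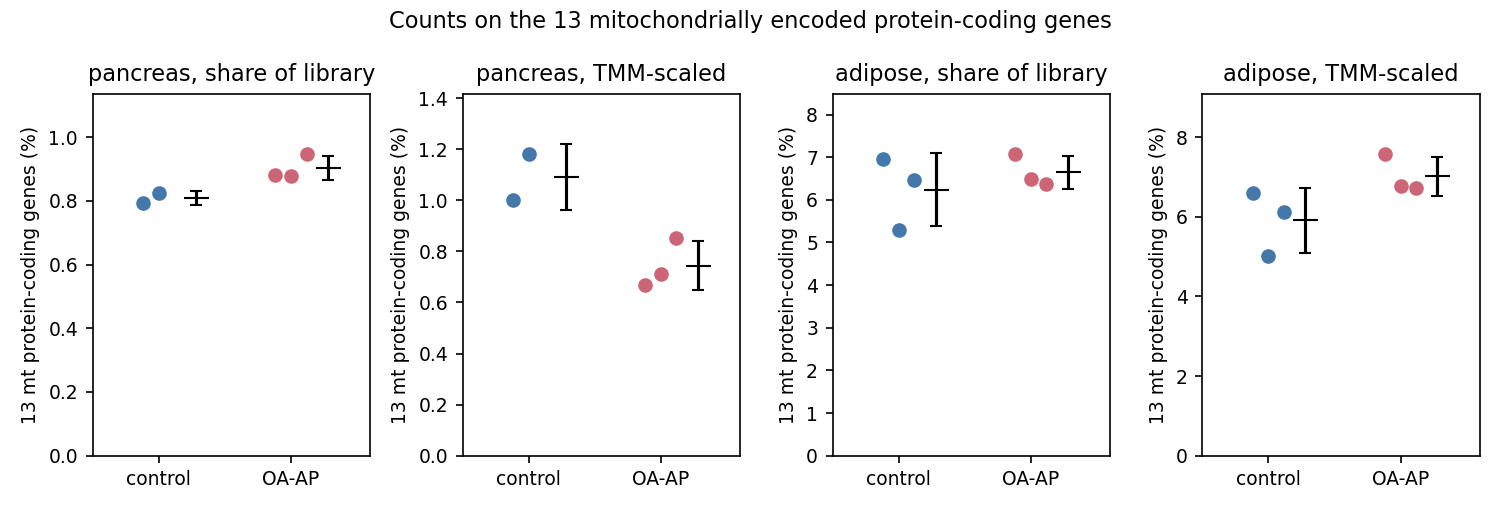
Share of counts (%) on the 13 mitochondrially encoded protein-coding genes in each library of pancreas and adipose tissue, as a part of the library total and on the TMM-scaled library size, with group means and bars of 1 SD. In pancreas OA-AP lies above control by library total (0.903 against 0.809%) and below it on the TMM scale (0.745 against 1.09%).

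The 13 genes differed widely in level among themselves. In CPM on the library total per kilobase, mt-Co1, the catalytic subunit of complex IV, was highest in both tissues, at 1979 ± 0.341 (SD, n = 2) in control pancreas and 15063 ± 1732 (SD, n = 3) in control adipose tissue. mt-Cytb, the cytochrome b of complex III, was second at 1541 ± 116 and 9591 ± 1501. mt-Nd1 came next at 942 ± 42.4 and 7715 ± 2042, which in adipose tissue is below mt-Cytb by less than the SD of mt-Nd1. mt-Nd5, mt-Nd2, mt-Nd4 and mt-Nd6, further complex I subunits, lay at 449 to 522 in control pancreas and 3396 to 4816 in control adipose tissue, where the neighbours mt-Nd4 and mt-Nd2 differed by less than their SDs.

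The other 6 genes were far below. mt-Co2 and mt-Co3 of complex IV, mt-Atp6 and mt-Atp8 of the ATP synthase, and mt-Nd3 and mt-Nd4l of complex I held the lowest 6 places in both tissues. mt-Co2 led them with 11.3 ± 0.468 in control pancreas and 229 ± 90.0 in control adipose tissue, 39.9-fold and 14.8-fold below the seventh gene, mt-Nd6. Together the 6 made up 0.236% of the 13-gene counts in control pancreas and 0.767% in control adipose tissue. mt-Atp8 had only 24 counts in all 5 pancreas libraries together.

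These 6 genes lie side by side on the mitochondrial chromosome, from base 7013 to base 10173 of the GRCm38 build, and 5 of them are copied almost exactly in the nuclear genome. Every stretch of 150 bases, the read length, was looked up in the transcripts of all other annotated genes. For mt-Co2 99.4% of the stretches recurred in Gm28661, for mt-Atp6 99.4% in Gm10925, for mt-Co3 99.8% in Gm28437, for mt-Nd4l 98.0% in Gm10222 and for mt-Nd3 97.0% in Gm28438. All of these are annotated pseudogenes on the minus strand of chromosome 1, and Gm10222 was added to the list after its values were seen. The same block holds copies of a piece of mt-Nd4 (Gm28439, 59.2% of stretches) and of mt-Co1 (Gm29216, 23.6%). No stretch of mt-Nd1, mt-Nd2, mt-Nd5, mt-Nd6, mt-Cytb, mt-Atp8 or the rRNA genes recurred in another transcript. Nuclear sequence outside annotated transcripts, such as that between Gm28661 and Gm10925 where a copy of mt-Atp8 would lie, was not searched.

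The first 60 bases of mt-Co2 (chromosome MT, bases 7013 to 7072, plus strand, coding exon) and of Gm28661 (chromosome 1, bases 24615506 to 24615565, minus strand, pseudogene exon) are shown because a read from here has no base by which to tell the copies apart.
mt-Co2: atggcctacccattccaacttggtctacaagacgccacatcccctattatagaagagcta
Gm28661: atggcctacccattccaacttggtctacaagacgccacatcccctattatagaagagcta

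mt-Nd3 and Gm28438 differ at a single base in 345 aligned bases, T3C, counted from 1 at the 5′ end of the mt-Nd3 transcript, mitochondrial base first. The start of each is shown with that base in capitals (chromosome MT, bases 9459 to 9481, plus strand, and chromosome 1, bases 24613097 to 24613119, minus strand).
mt-Nd3: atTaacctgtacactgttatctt
Gm28438: atCaacctgtacactgttatctt

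Counts were split between the members of such pairs in varying proportion. Of the counts on mt-Atp6 and Gm10925 together, Gm10925 held 51.0 to 66.4% across the pancreas libraries and 24.3 to 76.3% across the adipose libraries. Of the counts on mt-Nd3 and Gm28438, Gm28438 held 15 to 21.4% in pancreas and 11.7 to 70.6% in adipose tissue. For mt-Co1 the copy Gm29216 held at most 0.123% in pancreas and 1.09% in adipose tissue. A second copy of mt-Co1, Gm13340 on chromosome 2, is 97.6% identical over 1545 bases and had 48 counts in all pancreas and 20760 in all adipose libraries. Gm13341, beside it, holds 4.49% of the mt-Co2 stretches and had 3 and 7146 counts. How reads that fit more than 1 place were counted is not stated, so for mt-Co2, mt-Co3, mt-Atp6, mt-Nd3 and mt-Nd4l the printed values are of counts assigned to the gene, and the level of its RNA is uncertain. Of the listed pseudogenes without Gm10222 edgeR called 0 of 6 tested in pancreas (1 lower at an unadjusted p under 0.05, 0 by DESeq2) and 0 of 8 in adipose tissue (0 at an unadjusted p under 0.05, 1 lower by DESeq2). Among all genes edgeR called 13.5% lower and 16.2% higher in pancreas, and 12.7 and 12.4% in adipose tissue. The part of the copies in the low levels was not tested.

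The library share of the 7 genes with a copy among annotated transcripts, mt-Co1 and mt-Nd4 among them, was 0.370% ± 0.000461 (SD, n = 2) in control pancreas and 0.444% ± 0.0176 (SD, n = 3) in OA-AP, a difference of 0.0733 percentage points without overlap (exact permutation p = 0.1). For the 6 genes without such a copy it was 0.439% ± 0.0225 and 0.459% ± 0.0225, a difference of 0.0202 with overlapping groups (exact p = 0.5). In adipose tissue the differences were 0.0704 and 0.336, both with overlap (exact p = 0.9 and 0.4).

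**Figure D2:**
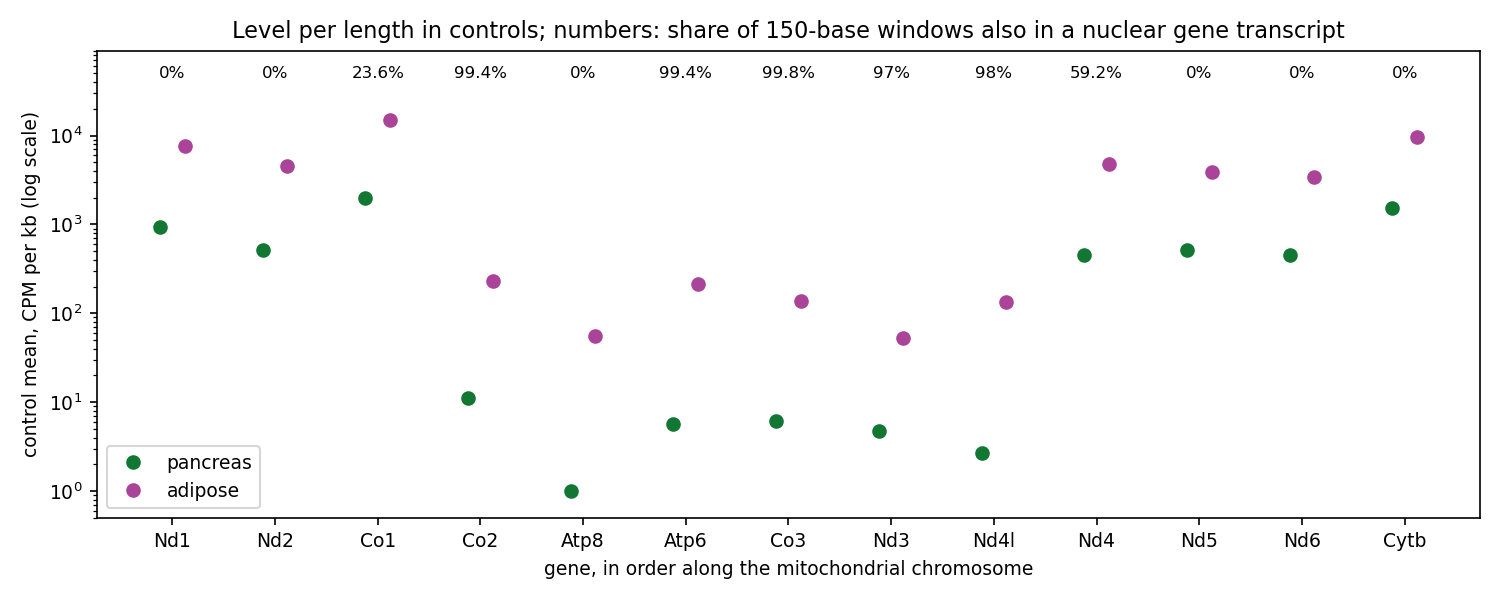
Mean control level of the 13 mitochondrially encoded protein-coding genes, in library CPM per kilobase (log axis), in the order of the genes on the mitochondrial chromosome, for pancreas (2 libraries) and adipose tissue (3 libraries). The number above each gene is the percentage of its 150-base stretches that recur in the transcript of another gene; the 6 genes from mt-Co2 to mt-Nd4l lie lowest, and 5 of them recur at 97.0% or more.

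The first comparison asked which of these genes differed between OA-AP and control pancreas. On the TMM scale 2 of the 12 tested protein-coding genes fell, mt-Nd1 and mt-Nd2, both encoding core membrane subunits of complex I and lying next to each other on the chromosome with only tRNA genes between them. A gene was called when the edgeR test gave an adjusted p under 0.05 over all genes tested and a fold change of at least 1.5. Among all 12884 genes tested in pancreas 13.5% were called lower and 16.2% higher, so 2 of 12 called lower is close to the share of all genes. edgeR called 0 of the 12 genes higher, 0 of them were higher at an unadjusted p under 0.05, and DESeq2 called 0 higher.

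mt-Nd2 (ENSMUSG00000064345, chromosome MT, bases 3914 to 4951, plus strand) had 675 and 782 CPM (TMM-scaled) in controls 1 and 2 and 333, 348 and 425 in OA-AP samples 1, 2 and 3. mt-Nd1 (ENSMUSG00000064341, bases 2751 to 3707, plus strand) had 1101 and 1332 CPM in the controls and 582, 655 and 778 in OA-AP. All 3 OA-AP libraries lay below both controls for either gene. The log2 fold change by edgeR was -0.98 ± 0.16 (SE, adjusted p = 0.00263) for mt-Nd2. It was -0.86 ± 0.17 (SE, edgeR adjusted p = 0.00708) for mt-Nd1.

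Both calls were lost with library totals in place of TMM, where the log2 fold changes were -0.28 for mt-Nd2 (edgeR adjusted p = 0.0922) and -0.15 for mt-Nd1 (adjusted p = 0.37), and without control 2, where they were -0.87 (adjusted p = 0.0523) and -0.71 (adjusted p = 0.101). Over the 13 alternatives the adjusted p ran from 3.51e-08 to 0.0922 for mt-Nd2 and from 5.8e-06 to 0.37 for mt-Nd1 (edgeR and DESeq2). The change of scale moved the median log2 fold change of all pancreatic genes from 0.04 to 0.75, with 506 genes then called lower and 5839 higher.

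Among the other 10 tested genes the TMM-scaled log2 fold changes ran from -0.56 to 0.09. mt-Cytb had 2381 ± 391 CPM (SD, n = 2) in control and 1615 ± 176 (SD, n = 3) in OA-AP, a log2 fold change of -0.56 by edgeR (adjusted p = 0.0373) that stayed under 1.5-fold. mt-Nd4, of complex I, was at -0.55 (edgeR adjusted p = 0.0262), also under 1.5-fold. mt-Nd5, mt-Nd6 and mt-Co1 had log2 fold changes of -0.51, -0.45 and -0.43 that did not pass the test (edgeR adjusted p = 0.0539, 0.0815 and 0.0864). The scarce genes mt-Co3, mt-Nd4l, mt-Nd3, mt-Co2 and mt-Atp6 were at -0.45, -0.19, -0.06, 0.01 and 0.09, and mt-Atp8 had too few counts to be tested.

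The median log2 fold change of the 12 genes was -0.45 on the TMM scale, with 10 negative and 2 positive, beside 0.04 for all genes tested. With library totals it was 0.26, with 2 negative and 10 positive, beside 0.75 for all genes. The median of the 12 thus lay below that of all genes on either scale, while its sign flipped. mt-Nd1 and mt-Nd2 were the 2 genes with a negative value on both scales, and mt-Co2 was called higher with library totals (log2 fold change 0.73, edgeR adjusted p = 0.0312).

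The make-up of the mitochondrial messenger pool does not depend on the scaling of the library. mt-Nd2 made up 6.75 and 6.62% of the counts on the 13 genes in the pancreas controls and 4.98, 4.89 and 4.98% in OA-AP. mt-Nd1 made up 11.003 and 11.264% in the controls and 8.69, 9.20 and 9.12% in OA-AP. mt-Co1 made up 38.6 and 37.0% in the controls and 40.2, 42.1 and 41.0% in OA-AP. The groups did not overlap for any of these 3 genes, with mt-Nd1 and mt-Nd2 smaller and mt-Co1 larger in OA-AP; these shares were not tested. mt-Nd3 (mean 0.0204% in control and 0.0287% in OA-AP) and mt-Co2 (0.0951 and 0.143%) were also larger in OA-AP without overlap. For mt-Nd6 (means 2.88 and 3.07%) the groups nearly touched, at 2.941% in control 1 and 2.945% in OA-AP sample 1. Shares of the same pool are bound together, so smaller shares of mt-Nd1 and mt-Nd2 go with larger shares elsewhere. With so few libraries, groups can also separate by chance. mt-Cytb held 21.8% of the pool in control and 21.7% in OA-AP, mt-Nd4 7.75 and 7.73%, and mt-Nd5 11.8 and 12.1%, all with overlapping groups. The groups overlapped for the scarce mt-Nd4l, mt-Co3, mt-Atp6 and mt-Atp8 as well. As a ratio of counts chosen after the values were seen, mt-Nd1 and mt-Nd2 together over mt-Co1 and mt-Cytb together gave 0.2979 and 0.3004 in the pancreas controls and 0.218, 0.222 and 0.227 in OA-AP.

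**Figure D3:**
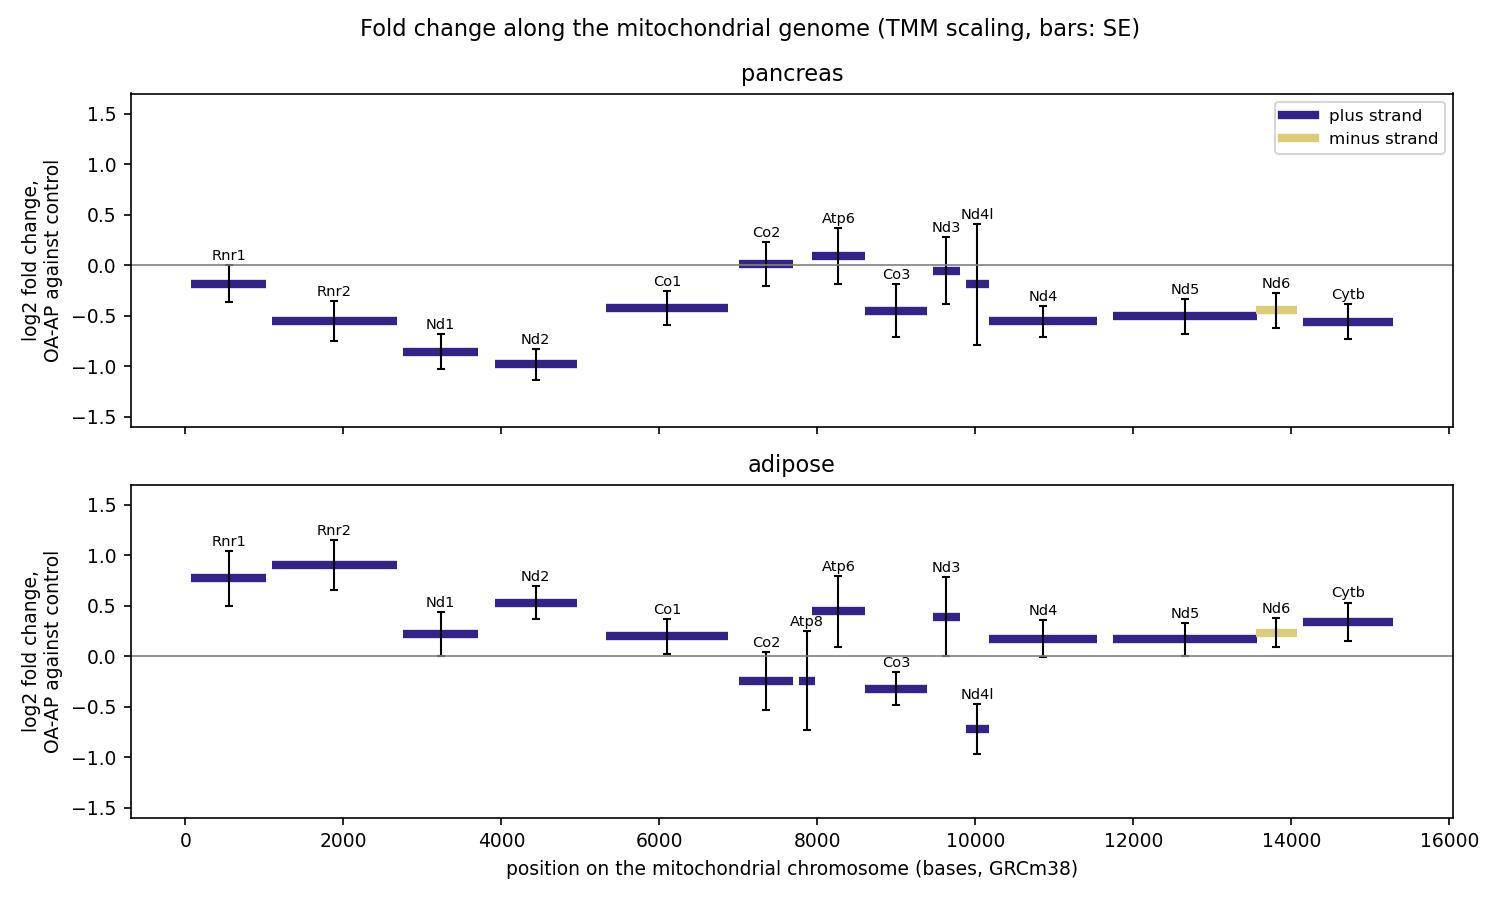
Log2 fold change of OA-AP against control (TMM-scaled, edgeR) for the mitochondrial rRNA and protein-coding genes that were tested, drawn at their position on the mitochondrial chromosome in GRCm38 for pancreas (upper panel) and adipose tissue (lower panel), with lines of 1 SE. mt-Nd1 and mt-Nd2 are lowest in pancreas (-0.86 and -0.98); with library totals 10 of the 12 pancreatic protein-coding values become positive.

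In adipose tissue the same question gave no call among the protein-coding genes. edgeR called 0 of 13 in either direction, with 2 at an unadjusted p under 0.05 (mt-Nd2 and mt-Nd4l), and DESeq2 called 1, mt-Nd4l. Among all 15839 genes tested in adipose tissue 12.7% were called lower and 12.4% higher. The median log2 fold change of the 13 genes was 0.20 on the TMM scale, with 9 positive and 4 negative, beside -0.00 for all genes. With library totals it was 0.04, again with 9 positive and 4 negative, beside -0.16 for all genes.

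mt-Nd2 had 5279, 3909 and 4254 CPM in adipose controls 1, 2 and 3 and 6483, 6445 and 6491 in OA-AP. Every OA-AP library lay above every control, and the 3 OA-AP values were close together. Its log2 fold change of 0.53 ± 0.17 (SE, edgeR adjusted p = 0.0416) stayed under the fold change of 1.5, so it was not called, and with library totals it was 0.37 (adjusted p = 0.11). Without control 1 it was 0.66 (edgeR adjusted p = 0.0316) and was called higher; over the 13 alternatives its adjusted p ran from 0.00122 to 0.125. As a part of the 13-gene pool mt-Nd2 held 8.01, 7.80 and 6.94% in the controls and 8.55, 9.53 and 9.67% in OA-AP, without overlap.

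mt-Nd4l, a small complex I subunit, had 48.8, 38.9 and 24.8 CPM in the controls and 27.0, 19.9 and 21.5 in OA-AP, with the lowest control inside the OA-AP range. Its log2 fold change of -0.72 ± 0.25 (SE, edgeR adjusted p = 0.0612) did not pass, but it passed with library totals (-0.88, adjusted p = 0.0304) and with DESeq2 (-0.72, adjusted p = 0.02), with 0.0169 to 0.165 over the 13 alternatives. Nearly all of its sequence recurs in Gm10222, which had a log2 fold change of 0.38 ± 0.15 (SE, edgeR adjusted p = 0.0798, with the unadjusted value of 0.0349 under 0.05). In pancreas Gm10222 was at -0.08 (edgeR adjusted p = 0.92). Counts of mt-Nd4l and Gm10222 added together were 48.9 ± 12.4 library CPM in control (SD, n = 3) and 32.4 ± 4.55 in OA-AP (SD, n = 3).

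The abundant genes of adipose tissue lay close to each other. mt-Co1 had 22045 ± 2545 CPM in control (SD, n = 3) and 25282 ± 885 in OA-AP (SD, n = 3), a log2 fold change of 0.20 (edgeR adjusted p = 0.408). mt-Cytb, mt-Nd6, mt-Nd1, mt-Nd4 and mt-Nd5 had log2 fold changes of 0.34, 0.23, 0.22, 0.18 and 0.17, with edgeR adjusted p from 0.194 to 0.489. The scarce genes mt-Atp6, mt-Nd3, mt-Atp8, mt-Co2 and mt-Co3 ran from 0.45 to -0.32, with SEs of 0.16 to 0.49. None of these 11 genes passed in edgeR.

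Whether the change differed between the tissues was tested with the tissue by condition term over all 11 libraries. edgeR called 1 of the 13 genes, mt-Nd2, whose log2 fold change was higher in adipose tissue than in pancreas by 1.49 ± 0.36 (SE, adjusted p = 0.0126). Among all 17046 genes tested 10.2% were called lower and 10.4% higher for this term. 3 of the 13 genes, mt-Nd1, mt-Nd2 and mt-Nd6, had an unadjusted p under 0.05, 10 of the 13 differences were positive, and their median was 0.60 beside -0.06 for all genes. One of the negative differences was that of mt-Atp8 (-0.49 ± 1.21, SE). This gene was too scarce to be tested in pancreas alone and entered through its adipose counts, so its value is not read as a difference between tissues.

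The mt-Nd2 difference was 0.65 with library totals (edgeR adjusted p = 0.119), a scale that moved the median of all genes to -0.88, and 1.39 without pancreas control 2 (adjusted p = 0.059), with 1.72e-10 to 0.119 over the 19 alternatives. The labels do not say whether libraries with the same number share a mouse, and with that number as a block the mt-Nd2 difference was 1.47 and not called (edgeR adjusted p = 0.104). The direction of mt-Nd2 in the mitochondrial pool was opposite in the tissues, with a mean share of 6.68 against 4.95% in pancreas and 7.59 against 9.25% in adipose tissue, control against OA-AP. DESeq2 called 7 genes in this comparison, mt-Nd2 with mt-Co1, mt-Cytb, mt-Nd5, mt-Nd1, mt-Nd4 and mt-Nd6.

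The rRNA genes mt-Rnr1 and mt-Rnr2 encode the small and large subunit RNAs of the mitochondrial ribosome. Their counts lay below those of the 7 abundant messenger RNAs and above those of the 6 scarce ones, at 30.5 ± 4.26 and 20.7 ± 0.339 library CPM per kilobase in control pancreas (SD, n = 2) and 372 ± 88.3 and 464 ± 84.6 in control adipose tissue (SD, n = 3). Whether the libraries were selected for polyadenylated RNA or depleted of rRNA is not stated, so these counts do not give the cellular amount of rRNA.

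In adipose tissue mt-Rnr2 (ENSMUSG00000064339, bases 1094 to 2675, plus strand) had 723, 806 and 558 CPM in controls 1, 2 and 3 and 905, 1668 and 1338 in OA-AP. On this scale all OA-AP libraries lay above all controls, while as a share of the library OA-AP sample 1 (0.0845%) lay below control 2 (0.0852%). It was called higher, with a log2 fold change of 0.91 ± 0.25 (SE, edgeR adjusted p = 0.027). With library totals it was 0.75 (edgeR adjusted p = 0.0527), and the call was also lost without control 1 (0.93, adjusted p = 0.073), control 3 (0.77, adjusted p = 0.0917) or OA-AP sample 3 (0.87, adjusted p = 0.0723), with 0.00118 to 0.0917 over the 13 alternatives. The erythroid markers of the same libraries summed to 403, 402 and 557 CPM in controls and 540, 970 and 1005 in OA-AP (2 of 5 called higher, 12.4% of all genes), and the endothelial markers to 998, 950 and 899 and to 1006, 1478 and 1194. Skeletal muscle markers, nearly all Acta1 in OA-AP, summed to 10.4, 17.9 and 35.3 and to 24.9, 155 and 73.5. Of the 4 tested, 2 were called lower and 0 higher (12.7 and 12.4% of all genes; 1 higher at an unadjusted p under 0.05 in edgeR). Their median log2 fold change was -0.90, so the sum does not stand for the list. The link of mt-Rnr2 with any of these marker lists was not tested. mt-Rnr1 had a log2 fold change of 0.77 ± 0.27 (SE, edgeR adjusted p = 0.0629) with overlapping groups.

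In pancreas mt-Rnr2 had 40.9 and 47.5 CPM in the controls and 26.3, 25.8 and 38.3 in OA-AP, a log2 fold change of -0.55 ± 0.20 (SE, edgeR adjusted p = 0.0616). mt-Rnr1 was at -0.18 ± 0.19 (SE, edgeR adjusted p = 0.477). Neither passed in edgeR or DESeq2, and 1 of them had an unadjusted p under 0.05. With library totals both values were positive, at 0.15 (edgeR adjusted p = 0.5) for mt-Rnr2 and 0.53 (adjusted p = 0.0225, under 1.5-fold) for mt-Rnr1. The log2 fold change of mt-Rnr2 was higher in adipose tissue than in pancreas by 1.44 ± 0.35 (SE, edgeR adjusted p = 0.0133), or by 0.60 with library totals (adjusted p = 0.179).

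Each tRNA gene, at 59 to 75 bases, is shorter than a read, so its counts can include reads that run into neighbouring sequence. These counts do not give the amount of the mature tRNA. In pancreas 11 of the 22 had no count in any library, which allows each a share of up to 4.00e-06% of the pooled counts, and 3 could be tested. In adipose tissue 4 had none, which allows each up to 2.15e-06%, and 8 could be tested. mt-Tp, the proline tRNA, held 84.3% of all tRNA counts in pancreas and 79.8% in adipose tissue. It is encoded at the edge of the non-coding control region, from which both strands are transcribed.

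In adipose tissue mt-Tp had 220, 195 and 194 CPM in controls 1, 2 and 3 and 156, 149 and 152 in OA-AP, lower in every OA-AP library. The log2 fold change of -0.41 ± 0.09 (SE, edgeR adjusted p = 0.014) was under 1.5-fold and so was not called. With library totals it was -0.57 (edgeR adjusted p = 0.0042).

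Of the 8 tested tRNA genes 3 scarce ones were called higher in adipose tissue by edgeR (12.4% of all genes; with library totals 2, beside 8.74%), and 0 lower, with mt-Tp the 1 gene lower at an unadjusted p under 0.05. mt-Te, the glutamate tRNA, had 34, 30 and 27 counts in the control libraries and 74, 54 and 87 in OA-AP, a TMM-scaled log2 fold change of 1.66 ± 0.27 (SE, edgeR adjusted p = 0.00421). mt-Tl1, a leucine tRNA, had 6, 8 and 12 counts in control and 13, 19 and 21 in OA-AP, a log2 fold change of 1.44 ± 0.35 (SE, edgeR adjusted p = 0.0169). It passed the count filter through its OA-AP libraries alone, as every control library lay below the filter level. Neither its call nor its place among the 3 is therefore read as a result. mt-Ty, the tyrosine tRNA, had 26, 61 and 32 counts in control and 58, 68 and 93 in OA-AP, a log2 fold change of 1.27 ± 0.41 (SE, edgeR adjusted p = 0.0466).

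The OA-AP libraries lay above the controls on the CPM scale for all 3, on few counts. The mt-Te call held with library totals (1.503, edgeR adjusted p = 0.00595), as did that of mt-Tl1 (1.29, adjusted p = 0.0251), while mt-Ty was at 1.11 (adjusted p = 0.0686). mt-Tl1 was not called without control 1 (1.23, edgeR adjusted p = 0.0603) or OA-AP sample 3 (1.29, adjusted p = 0.0643). mt-Ty was not called without control 1 (1.02, edgeR adjusted p = 0.13), control 3 (1.07, adjusted p = 0.144) or any of OA-AP samples 1, 2 and 3 (1.39, 1.34 and 1.04, adjusted p = 0.0668, 0.0636 and 0.142).

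The sequences of mt-Tp and of the called tRNAs follow. mt-Tp (bases 15356 to 15422), mt-Te (bases 14071 to 14139) and mt-Ty (bases 5260 to 5326) are on the minus strand of chromosome MT, and mt-Tl1 (bases 2676 to 2750), between mt-Rnr2 and mt-Nd1, on the plus strand. No base is capitalised.
mt-Tp: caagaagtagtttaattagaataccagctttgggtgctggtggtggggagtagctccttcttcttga
mt-Te: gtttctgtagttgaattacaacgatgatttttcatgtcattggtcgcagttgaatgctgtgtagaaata
mt-Ty: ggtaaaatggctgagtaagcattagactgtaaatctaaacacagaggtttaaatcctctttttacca
mt-Tl1: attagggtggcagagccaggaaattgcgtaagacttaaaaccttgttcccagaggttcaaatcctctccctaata

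In pancreas mt-Tp had a log2 fold change of 0.26 ± 0.37 (SE, edgeR adjusted p = 0.623). mt-Tc and mt-Tn, the cysteine and asparagine tRNAs, were at -0.53 ± 0.40 and -0.47 ± 0.47 (edgeR adjusted p = 0.336 and 0.466). 0 of the 3 were called or had an unadjusted p under 0.05 in edgeR.

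The 13 genes supply only part of each respiratory complex, and 78 nuclear genes for subunits of complexes I, III and IV and of the ATP synthase were counted beside them. The log2 ratio of mitochondrial to nuclear OXPHOS counts does not depend on the scaling of the library. In adipose tissue it was 2.66, 2.47 and 2.67 in controls 1, 2 and 3 and 2.90, 2.94 and 2.95 in OA-AP. All OA-AP libraries lay above all controls, with means of 2.60 ± 0.11 and 2.93 ± 0.03 (SD, n = 3 each) and a difference of 0.33 (exact permutation p = 0.1, two-sided, the smallest that 3 against 3 samples can give).

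In pancreas the ratio was 1.89 and 2.00 in the controls and 2.03, 2.13 and 2.31 in OA-AP, without overlap but with OA-AP sample 1 close to control 2. The difference of 0.21 had an exact permutation p of 0.2. Without the 7 genes that have copies it was 0.12, with overlapping groups (exact p = 0.6). With the TCA cycle enzymes in the denominator it was -0.21 (exact p = 0.3), so the direction in pancreas depends on the nuclear genes chosen. In adipose tissue the same denominator gave 0.39 (exact p = 0.1). With the complex II genes in the denominator the difference was 0.10 in pancreas, with overlapping groups (exact p = 0.7). In adipose tissue it was then 0.53 without overlap (exact p = 0.1).

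By complex, the log2 ratio of mitochondrial to nuclear subunit counts in adipose tissue was 3.27 in control and 3.66 in OA-AP for complex I, 3.24 and 3.67 for complex III, where mt-Cytb is the mitochondrial member, and 3.47 and 3.69 for complex IV, each without overlap. For the ATP synthase it was -4.72 and -4.33 with overlapping groups. In pancreas the means were 2.41 and 2.58 for complex I, 2.61 and 2.80 for complex III, 2.95 and 3.37 for complex IV and -7.64 and -6.89 for the ATP synthase, higher in OA-AP in each case and without overlap. For complex I the groups nearly touched, at 2.443 in control 2 and 2.449 in OA-AP sample 1. These ratios by complex are descriptions, and the ATP synthase ratio rests on the scarce genes mt-Atp6 and mt-Atp8.

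Of 73 tested nuclear OXPHOS genes in pancreas edgeR called 57 lower, beside 13.5% of all genes, and 0 higher, with 0 higher at an unadjusted p under 0.05 and 0 by DESeq2. Their median log2 fold change was -0.89, beside -0.45 for the 12 mitochondrial genes and 0.04 for all genes, and the difference between the lists was not tested. With library totals 10 were lower and 1 higher, beside 3.93 and 45.3% of all genes, with a median of -0.18 beside 0.26 for the mitochondrial and 0.75 for all genes. Their summed share of the library was 0.210% ± 0.00497 (SD, n = 2) in control and 0.203% ± 0.0121 (SD, n = 3) in OA-AP, with overlapping groups (exact permutation p = 0.5). Atp5b, the catalytic subunit of the ATP synthase, fell from 274 ± 1.19 CPM (SD, n = 2) to 182 ± 8.23 (SD, n = 3), a log2 fold change of -0.59 (edgeR adjusted p = 0.0077). With library totals as the scale, the log2 ratio of its mean shares was 0.13.

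In adipose tissue 1 of 77 tested nuclear OXPHOS genes was called lower and 1 higher (12.7 and 12.4% of all genes), with a median log2 fold change of -0.08. With library totals 2 were lower and 0 higher, beside 17.9 and 8.74% of all genes, with a median of -0.23 beside -0.16 for all genes. Their summed share of the library was 1.10, 0.958 and 1.02% in controls and 0.948, 0.844 and 0.823% in OA-AP, without overlap (exact permutation p = 0.1).

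Of the 10 genes for transcription of mitochondrial DNA, including the RNA polymerase Polrmt and the packaging and initiation factor Tfam, 9 were tested in pancreas with 0 lower and 1 higher by edgeR (13.5 and 16.2% of all genes), the initiation factor Tfb2m, from 5.07 ± 0.147 CPM (SD, n = 2) to 8.17 ± 1.43 (SD, n = 3; log2 fold change 0.69, adjusted p = 0.0491). DESeq2 called 0 higher and 0 lower there, and 2 were higher and 0 lower at an unadjusted p under 0.05. With library totals 0 of the 9 were lower and 4 higher, beside 3.93 and 45.3% of all genes. Tfam and Polrmt were at -0.16 and 0.41 in pancreas (edgeR adjusted p = 0.612 and 0.137) and at 0.08 and 0.20 in adipose tissue (adjusted p = 0.677 and 0.331). In adipose tissue 1 of 10 was called lower (12.7% of all genes), the termination factor gene Mterf1b, with a log2 fold change of -0.97 (edgeR adjusted p = 0.0356), and 0 higher by edgeR, by DESeq2 or at an unadjusted p under 0.05.

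Among the 10 genes for stability and polyadenylation of mitochondrial messengers, edgeR called 2 of 9 higher in pancreas, Fastkd1 and Tbrg4 (16.2% of all genes), and 1 lower (13.5%), Lrpprc, which binds and stabilises them (log2 fold change -0.63, adjusted p = 0.035). Fastkd1 was at 1.03 and Tbrg4 at 0.66 (edgeR adjusted p = 0.00747 and 0.0126). With library totals 6 of the 9 were called higher and 0 lower, where 45.3 and 3.93% of all genes were called, and the log2 ratio of the mean shares of Lrpprc was 0.09. In adipose tissue 2 of 10 were higher (12.4% of all genes), Tbrg4 at 0.61 and Fastkd5 at 0.62 (edgeR adjusted p = 0.0122 and 0.0276), and 0 lower at an unadjusted p under 0.05 or by DESeq2. With library totals 0 were called there, beside 17.9% of all genes lower and 8.74% higher.

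Among regulators of mitochondrial biogenesis, the coactivator Ppargc1a fell in both tissues. In pancreas it went from 3.77 ± 0.122 CPM (SD, n = 2) to 0.517 ± 0.443 (SD, n = 3; log2 fold change -2.87, edgeR adjusted p = 0.00717), and in adipose tissue from 11.4 ± 1.12 to 2.65 ± 0.486 (SD, 3 libraries each; log2 fold change -2.10, adjusted p = 0.000557). Its relative Pprc1 rose in both, by log2 fold changes of 1.26 in pancreas and 1.49 in adipose tissue (edgeR adjusted p = 0.00332 and 0.000746). The ratios of mean library shares had the same signs, at -2.15 and 1.95 in pancreas and -2.26 and 1.33 in adipose tissue. In all, 1 of 7 tested regulators was lower and 3 higher in pancreas (13.5 and 16.2% of all genes), and 3 of 9 lower and 1 higher in adipose tissue (12.7 and 12.4%). With library totals 1 was lower and 5 higher in pancreas, beside 3.93 and 45.3% of all genes. In adipose tissue 3 were then lower and 1 higher, beside 17.9 and 8.74%.

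Genes acting before and after transcription were counted as well. For replication of mitochondrial DNA edgeR called 1 of 7 genes lower and 1 higher in pancreas (13.5 and 16.2% of all genes), the polymerase Polg at 1.13 (adjusted p = 0.000722), and 2 of 7 lower in adipose tissue (12.7% of all genes). For processing of the precursors it called 1 of 8 lower in pancreas, Hsd17b10 at -0.77 (adjusted p = 0.00498), and 0 of 8 in adipose tissue (3 higher at an unadjusted p under 0.05, 0 by DESeq2). For decay of mitochondrial RNA it called 1 of 5 lower in pancreas, Rexo2 at -0.74 (adjusted p = 0.00786), and 2 of 5 higher in adipose tissue (12.4% of all genes). For translation factors it called 3 of 10 lower in pancreas, with Tufm the most abundant of them, and 0 of 10 in adipose tissue (1 higher at an unadjusted p under 0.05, 0 by DESeq2). With library totals, where 3.93% of all pancreatic genes were lower and 45.3% higher, the pancreas counts were 1 lower and 1 higher for replication, 0 and 2 for processing, 0 and 1 for decay and 0 and 0 for translation factors.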

How the data were processed

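RNA sequencing of 11 mouse libraries was used, from total RNA of pancreas and adipose tissue. The authors trimmed paired 150-base reads with Trim Galore 0.6.6, checked them with fastp 0.20.1, mapped them to GRCm38 with STAR and deposited raw counts per gene from featureCounts 2.0.1, with 1 column per library. The deposited gene length column, in other units (bases), was listed by the authors beside the counts. Strand setting and the treatment of reads with several matches are not stated. Libraries held 14188832 to 27928097 counts.

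Each tissue was fitted apart with edgeR 4.0.16 in R 4.3.3 (filterByExpr, TMM, robust quasi-likelihood test), on all genes, with Benjamini-Hochberg adjustment over all genes tested. Calls needed an adjusted p under 0.05 with a change of 1.5-fold or more. A tissue by condition term was tested over the 11 libraries. Shares and ratios were compared by exact permutation over samples, two-sided on the difference of means. CPM is on TMM-scaled library sizes unless library counts are named.

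Genes were named from these: all 13 protein-coding and 2 rRNA genes, the 5 tRNA genes with the highest mean CPM in each tissue and any called, the 2 most abundant members of each nuclear list, all members of the transcription, stability and biogenesis lists, and pseudogenes with 10 or more counts, with Gm10222 added after its values were seen. The members, lists and comparisons were chosen with earlier results of these data known; alternatives on shared sequence were added after the counts were seen. Sequences and coordinates come from GENCODE M21 transcripts.

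Alternatives were other scalings, DESeq2 1.42.0, other count filters and fold thresholds, each library left out, and other denominators. The stop on errors in the test on simulated data was limited to edgeR after DESeq2 had failed it: DESeq2 made more false calls there than edgeR, and its counts are to be read with that.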

Additional observations from a re-analysis of the deposited data

Results flagged for a closer look

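The change between control and OA-AP differed between the tissues for mt-Nd2 and mt-Rnr2, by the edgeR test of the tissue by condition term. The log2 fold change of mt-Nd2 was higher in adipose tissue than in pancreas by 1.49 (SE 0.36, edgeR adjusted p = 0.0126); with replicate number as a block it was 1.47 (adjusted p = 0.104), and with library totals 0.65 (adjusted p = 0.119). That of mt-Rnr2 was higher by 1.44 (SE 0.35, edgeR adjusted p = 0.0133); it was 0.60 with library totals (adjusted p = 0.179) and 1.34 without pancreas control 2 (adjusted p = 0.0647). For mt-Te the same test gave 3.54 (SE 0.95, edgeR adjusted p = 0.021), which is not read as a difference between tissues, since mt-Te was too scarce to be tested in pancreas alone and entered the test through its adipose counts. It had 7 and 2 counts in the pancreas controls and 0, 3 and 3 in OA-AP, and without pancreas control 1 its difference was 2.50 (adjusted p = 0.297). The part of cell composition in these differences was not tested.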

How the results depend on the processing

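Of the values of single mitochondrial genes under the alternatives, 736 kept their side of the threshold, 24 lost and 38 gained a call, and 0 reversed a call. Not every uncalled value kept its direction, and the log2 fold change of mt-Co1 in pancreas was -0.43 with TMM and 0.28 with library totals. The number of protein-coding genes called in pancreas, 2 with TMM, was 4 with DESeq2 size factors, 4 with DESeq2, 1 with library totals (higher), 0 at a fold change of at least 2 and 4 with no fold threshold. Leaving out single libraries gave 0 to 6: 0 without control 2, where 2 genes had an unadjusted p under 0.05, and 6 without OA-AP sample 3. In adipose tissue, where edgeR called 0 (2 at an unadjusted p under 0.05), it was 1 with library totals and 1 with DESeq2 (mt-Nd4l both times), 1 with no fold threshold (mt-Nd2), and 0 to 1 with a library left out: 1 without control 1 (mt-Nd2) and 1 without control 3 (mt-Nd4l). For tissue by condition, 1 with TMM, it was 0 with library totals (2 at an unadjusted p under 0.05), 7 with DESeq2, 6 with at least 10 counts in every sample, and 0 to 2 with a library left out, 0 without pancreas control 2 (1 at an unadjusted p under 0.05) and 2 without pancreas OA-AP sample 3. A group left with 1 library was assumed to vary like the other. On simulated data DESeq2 made more false calls than edgeR. The cause of these differences was not tested.

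The pancreas share difference of 0.0935 percentage points reversed to -0.346 on TMM-scaled size and to -1.03 without the acinar markers and other genes above 1% of a library, and was 0.0711 to 0.110 with a library left out. The pancreas log2 ratio reversed to -0.21 over the TCA cycle, and was 0.14 to 0.27 with a library left out. The adipose share difference was -0.0652 to 0.767 with a library left out, negative without control 2. The adipose log2 ratio kept its direction in all 11 alternatives (0.27 to 0.37 with a library left out). Leaving out the 7 genes with shared sequence, chosen after seeing the data, gave 2 calls in pancreas, 0 in adipose tissue (1 at an unadjusted p under 0.05, and DESeq2 called none of the other 6) and log2 ratio differences of 0.12 and 0.39.

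Replicate numbers need not mean pairing. As a block they gave 6 calls in pancreas, 1 in adipose tissue (mt-Nd4l) and 0 for tissue by condition (1 at an unadjusted p under 0.05), share differences of 0.0711 and 0.407 and log2 ratio differences of 0.14 and 0.33. The mt-Nd2 difference between tissues was then 1.47 (edgeR adjusted p = 0.104). Same-numbered control and OA-AP libraries correlated across genes, after removing group means, at 0.00 and -0.04 in pancreas and at -0.02, 0.05 and -0.18 in adipose tissue. With different numbers the adipose values ran from -0.28 to 0.34. The 2 pancreas controls mirror each other once their mean is removed, so values that involve them cannot show or exclude pairing. Between pancreas and adipose tissue, same-numbered libraries correlated at -0.07 and -0.04 in controls and at -0.02, 0.09 and 0.12 in OA-AP. Libraries with different numbers correlated there at -0.11 to 0.08. Depth limits mt-Atp8, mt-Nd4l and most tRNA genes in pancreas.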
